A study of Danaus plexippus with 36 samples.

Results

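Antennae and proboscis are 2 head appendages of a butterfly, and the RNA of both was compared here within the same adult monarchs (Danaus plexippus). The libraries were chosen by tissue label and joined by animal number, which gave 11 antennal and 12 proboscis libraries, 23 of the 35 libraries analysed. The labels list antennae of male 2 as well, but the count table used here had no column for them, so 22 libraries of 11 animals entered the within-animal comparison. The question was which genes differ in level between the 2 tissues, and which of these differences hold in both of the labelled batches.

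All animals were wild monarchs caught in the field as adults, with no treatment in the labels. The females were gravid, so female sex and that reproductive state cannot be told apart. Batch 1 held both tissues of females 18, 25 and 27 and of males 13, 15 and 20. Batch 2 held both tissues of females 1, 3 and 11 and of males 12 and 16. What a batch stands for is not given in the sources used here. Libraries were made with a stranded messenger RNA kit from 100 ng of total RNA per tissue sample, per the labels' protocols. Each library is 1 tissue of 1 animal, so the p-values measure the spread between animals.

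The antenna is the main organ of smell in a moth or butterfly. Its surface carries sensilla, small cuticular hairs and pegs that hold the endings of sensory neurons, and odorant receptors in those neurons work together with a shared co-receptor. The proboscis is the coiled feeding tube; it is moved by muscles and carries sensilla for taste and touch. The series was made to find genes that differ between sexes and tissues, with attention to chemosensory receptors. The gene identifiers of the count table matched 0 entries of the name table used (RefSeq, assembly MEX_DaPlex). No gene family or marker of a cell type could therefore be looked up, neither tissue label could be checked against its defining markers, and genes are given by identifier without a location.

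Sequencing depth differed between the tissues and followed the same direction in every animal. Antennal libraries held 0.622 to 24.7 M counts (median 5.50 M, where M stands for 1000000), and proboscis libraries, male 2 included, held 1.92 to 53.7 M (median 13.2 M). The proboscis library was the deeper one in 11 of 11 animals, by a ratio of 1.03 in male 13 to 8.55 in male 16. The median ratio was 1.74 in batch 1 and 6.27 in batch 2. Female 11 of batch 2 had the shallowest library of each tissue. In a comparison by correlation over the 10129 genes kept for testing, 23 of 23 libraries were closest to one of the same tissue. Their median correlation with the others of that tissue was 0.777 to 0.874 for antennae and 0.694 to 0.926 for proboscis, and the lowest of these was the proboscis of male 2.

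Counts were spread over more genes in antennae than in proboscis. The number of most abundant genes that together held 50% of the counts was 156 to 397 in antennae (median 285) and 52 to 213 in proboscis (median 141). The antennal number was the larger one in 11 of 11 animals, although the ranges of the 2 tissues overlapped. In batch 1 the pairs, antennae first, were 337 and 156 in male 13, 294 and 151 in male 15, 275 and 135 in female 18, 285 and 77 in male 20, 383 and 213 in female 25, and 397 and 129 in female 27. In batch 2 they were 215 and 52 in female 11, 156 and 141 in male 12, 315 and 150 in male 16, 209 and 163 in female 1, and 276 and 119 in female 3. As a ratio within the animal, the difference was smallest in male 12 and female 1 and largest in female 11. The mean log2 ratio of antennae over proboscis was 1.12 ± 0.58 (SD, n = 11), which is 2.17-fold, with a 2-sided exact sign-flip p of 0.000977, the smallest that 11 animals allow. Batch 1 alone gave 1.24 ± 0.41 (SD, n = 6, exact p = 0.0313) and batch 2 alone 0.97 ± 0.76 (SD, n = 5, exact p = 0.0625), each the smallest p its number of animals allows.

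Of the 10129 genes tested, 2525 differed between antennae and proboscis (24.9%), at an adjusted p below 0.05 in edgeR's quasi-likelihood test with the animal as a block. Higher in antennae were 1061 genes (10.5%) and lower in antennae were 1464 (14.5%). The lower genes were also farther apart. A difference of 8-fold or more was found for 178 higher and 389 lower genes, and one of 32-fold or more for 80 and 188. The median log2 fold change, antennae over proboscis, was 1.31 among the higher genes, -1.46 among the lower ones and -0.06 over all genes tested. Tested against a difference of 2-fold rather than of 0, 869 genes passed (8.58%), of which 312 were higher in antennae and 557 lower. The split of the 2525 depended on the scaling: with each of the 22 libraries in turn as the reference of the TMM (trimmed mean of M values) scaling, a choice added after seeing the data, 33.9% to 44.5% of the called genes were the higher ones, against 42.0% as reported. The share was 46.6% with DESeq2 size factors and 45.6% with upper-quartile scaling in edgeR, 47.2% in DESeq2 and 48.0% in limma voom, so lower genes were the majority in each of these. In bulk RNA, fewer cells of a type in a tissue and less RNA per cell cannot be told apart, and this holds for every difference given here.

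Single animals followed the call for nearly all of these genes. Every called gene had the called sign in at least 7 of the 11 animals, 2450 (97.0%) in at least 9 and 1218 (48.2%) in all 11. The same animals made the calls, which favours this agreement. Of the 10129 genes tested, 3880 had one sign in at least 9 animals. Of all genes tested, 1243 (12.3%) had the same sign in all 11 animals, 421 of them positive and 822 negative. A stricter description asks that no library of one tissue overlaps the range of the other. That was met by 408 tested genes (4.03%), with every antennal library above every proboscis library for 86 genes and below for 322.

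**Figure D1:**
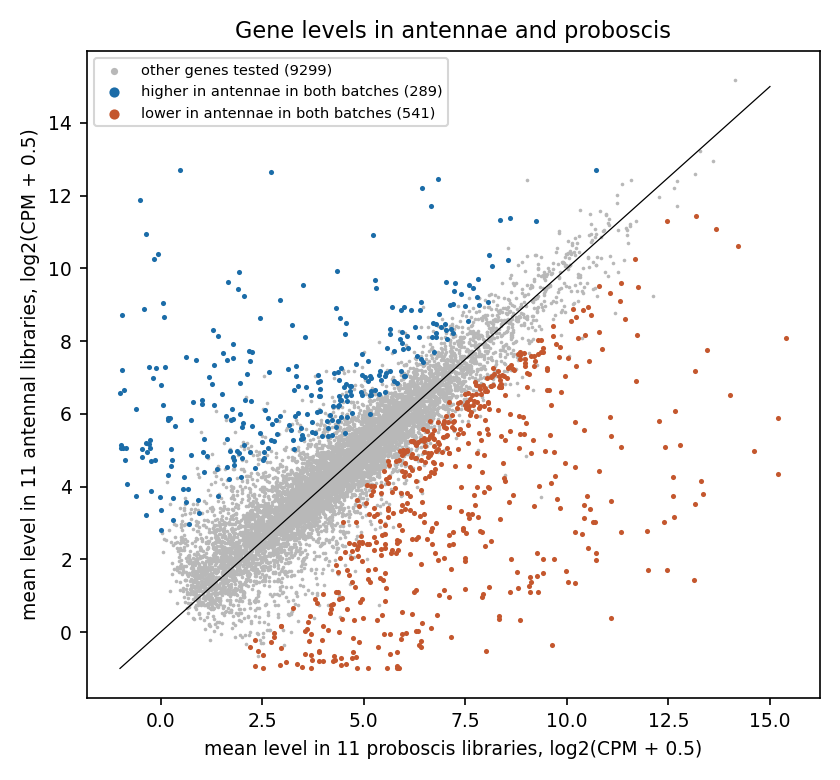
Mean level of each tested gene in the 11 antennal libraries (vertical axis) against the 11 proboscis libraries of the same animals (horizontal axis), both as log2(CPM + 0.5), where CPM is the count for each 1000000 counts of the TMM-scaled library; the diagonal line marks equal levels. The 289 genes called higher in antennae in both batches lie above the line and the 541 called lower lie below it, many of them at high proboscis levels.

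Fitted alone, batch 1 with 6 animals called 1809 genes (17.9%; 736 higher in antennae, 1073 lower) and batch 2 with 5 animals called 1093 (10.8%; 452 higher, 641 lower). Both batches called 830 genes in the same direction (8.19% of the genes tested), 289 higher in antennae (2.85%) and 541 lower (5.34%). No gene was called in opposite directions. The 830 genes are 45.9% of the batch 1 list and 75.9% of the batch 2 list. They were all among the 2525 genes called over 11 animals, and make up 32.9% of them. Of the other called genes, 802 passed in batch 1 only, 211 in batch 2 only and 682 in neither batch alone. All 2525 had the same sign in both batches, beside 7379 (72.9%) of all genes tested. The fit over 11 animals pools the same 2 batches, so its calls favour an equal sign and the inclusion of the 830 genes. Of the 869 genes that passed the 2-fold test, 685 (78.8%) were called in both batches. The counts rested in part on single animals: batch 1 called 1204 genes without female 25, batch 2 called 624 without female 3 and 679 without male 16, and both batches called 544 without female 3. They also depended on the tool. DESeq2 called 1979 genes in batch 2 (1010 higher, 969 lower) and 1358 in both batches, and limma voom called 1913 in batch 2 (966 higher, 947 lower) and 1331 in both, so the excess of lower genes in batch 2 did not hold with either.

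**Figure D2:**
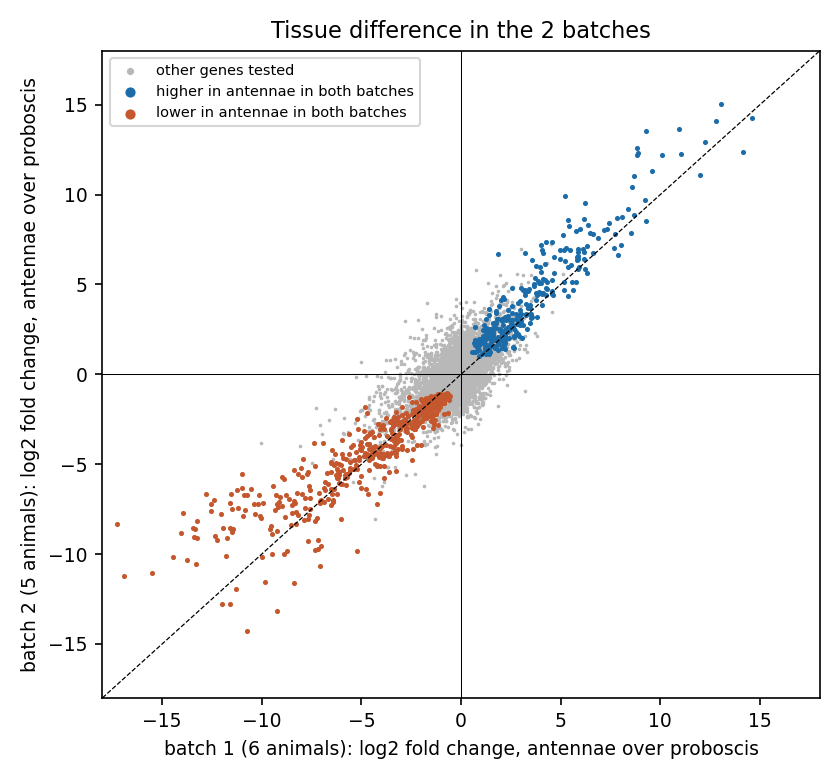
Fitted log2 fold change of antennae over proboscis in batch 2 (5 animals, vertical axis) against batch 1 (6 animals, horizontal axis) for 10129 genes, with the dashed line at equal values. The 830 genes called in both batches, coloured by direction, all lie in the 2 quadrants of equal sign.

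The genes that passed in 1 batch only leaned the same way in the other. Of the 979 genes called in batch 1 only, 915 (93.5%) had the same sign in batch 2, with a median size of 1.08 on the log2 scale in batch 1 and 0.85 in batch 2. Of the 263 called in batch 2 only, 251 (95.4%) had the same sign in batch 1, with a median size of 2.25 in batch 2 and 1.09 in batch 1. An opposite sign with an unadjusted p below 0.05 was found for 1 and for 0 of them. The 830 shared genes had a median size of 3.16 in batch 1 and 3.24 in batch 2. Within-animal differences varied more in batch 2: the median SD over genes of the within-animal log2 difference was 0.773 in batch 1 and 1.18 in batch 2, and it was the larger one in batch 2 for 68.4% of the genes. The antennal libraries had a median of 6.66 M counts in batch 1 and 2.24 M in batch 2, and the part of counting error in this spread was not tested.

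Calls of 32-fold or more recurred most often, and among batch 1 calls the share that recurred rose with each step in size. Of the genes called in batch 1 at less than 2-fold, 49 of 474 (10.3%) were also called in batch 2. The share was 230 of 644 (35.7%) from 2- to 4-fold, 123 of 188 (65.4%) from 4- to 8-fold, 173 of 228 (75.9%) from 8- to 32-fold and 255 of 275 (92.7%) at 32-fold or more. Starting from batch 2, whose calls were all 2-fold or more, the shares were 70.0% of 327 genes, 64.2% of 243, 75.2% of 246 and 93.9% of 277 over the same ranges. From 8- to 32-fold the batch 2 calls recurred for 68 of 114 genes higher in antennae (59.6%) and for 117 of 132 lower ones (88.6%), while the batch 1 calls of that size recurred for 63 of 74 higher (85.1%) and 110 of 154 lower ones (71.4%). These shares describe the 2 lists and were not tested.

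**Figure D3:**
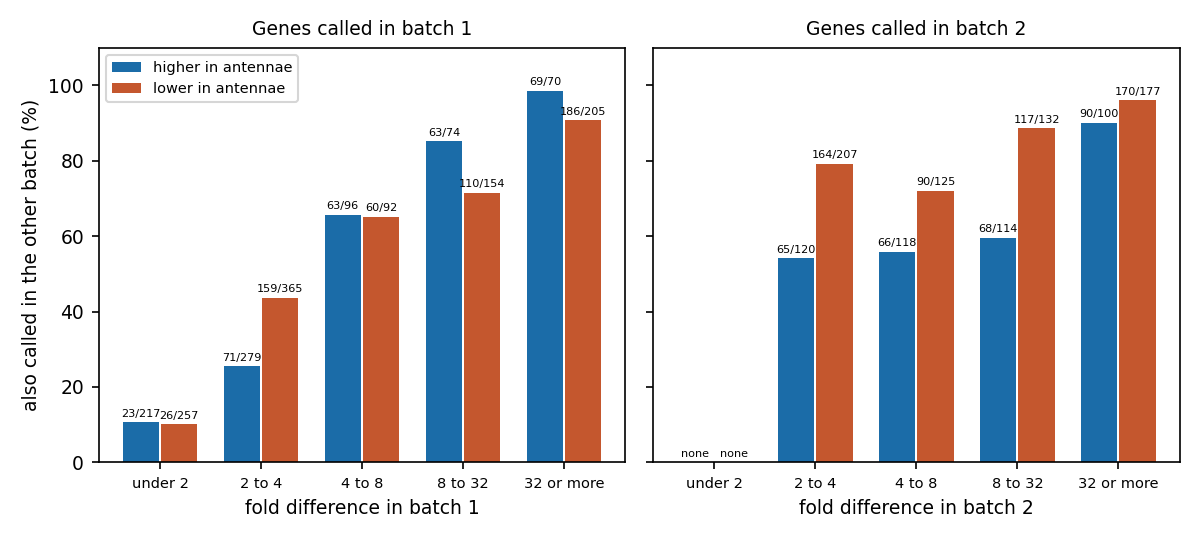
Percent of the genes called in one batch that were called in the same direction in the other (vertical axis), by their fold difference in the first (horizontal axis), with the counts above the bars; left, genes called in batch 1, right, in batch 2. In both panels the bars at 32-fold or more are the tallest for each direction, the lowest of them being 90 of 100 genes and the highest 69 of 70.

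Abundance went with the calls as well. Among genes with a mean of 1 to 10 CPM, 281 of 2794 (10.1%) were called over 11 animals and 62 (2.22%) in both batches. Among the 152 genes at 1000 CPM or more, 78 (51.3%) were called over 11 animals and 53 (34.9%) in both batches, 10 higher in antennae and 43 lower. The step lay between these for genes of 10 to 100 CPM (25.8% and 7.35%) and of 100 to 1000 CPM (48.6% and 21.1%). A gene with more counts is measured with less error, and how much of this order comes from that was not tested.

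The 830 genes called in both batches were far apart in level. The median log2 fold change was 2.94 for the 289 higher in antennae (7.65-fold) and -3.35 for the 541 lower (10.2-fold). At the median gene, the mean level of the higher genes was 101 CPM in antennae and 10.5 in proboscis, and that of the lower genes was 15.2 CPM in antennae and 135 in proboscis. All 11 animals had the called direction for 228 of the 289 and for 508 of the 541. The tissues did not overlap in any library for 81 and 302 of them. Over all 10129 genes tested, 421 and 822 had the same direction in 11 animals, and 86 and 322 had no overlap. Calls in both batches rest on these same libraries, so the choice favours such genes. Median sizes of the 830 genes in the females and in the males were 3.37 and 3.39 on the log2 scale.

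The proboscis genes took up a large share of the proboscis counts. The 541 genes lower in antennae held 35.9% to 51.5% of the counts of the 11 proboscis libraries (median 39.8%), 31.9% of those of the unpaired proboscis of male 2, and 3.33% to 6.16% of those of the antennal libraries (median 4.14%). The 289 genes higher in antennae held 6.18% to 18.5% of antennal counts (median 10.5%) and 0.669% to 1.47% of the paired proboscis counts (median 1.03%), with 1.32% in male 2. The ranges of the 2 tissues were apart for both lists, which the choice of the lists fixes. The antennal share of the 289 genes had a median of 9.04% in batch 1 and 16.4% in batch 2. The batches overlapped, with 6.18% to 16.0% in batch 1 and 7.39% to 18.5% in batch 2. The proboscis share of the 541 genes had medians of 40.1% and 39.6%.

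Animal by animal, 783 of the 830 genes (94.3%) in male 20 to all 830 in female 27, male 16 and female 3 had the called direction. Female 11, with the shallowest libraries, had it for 808 (97.3%). The median size of the difference ran from 2.51 on the log2 scale in male 20 to 3.39 in female 3. These animals were used in making the calls. The proboscis of male 2 was not, and its level was nearer to the proboscis mean than to the antennal mean for 246 of the 289 genes (85.1%) and for 424 of the 541 (78.4%), 80.7% of the 830. The shares for the libraries that were used ran from 89.3% to 98.6%, and male 2 reached 64.2% over all genes tested. It stood above every antennal library for 408 of the 541 genes and below every one for 196 of the 289. The share of all genes tested that met this stricter limit was not computed, so these counts are a description only.

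Few genes met limits on level that every library of both tissues had to pass. Only 2 genes reached 10 CPM in all 11 antennal libraries and stayed below 1 CPM in all 11 proboscis libraries, and neither was without a count in proboscis. In the other direction 6 genes met the same limits, of which 3 had no antennal count. All 8 were called in both batches. These counts are set by the weakest libraries. A single count exceeds 1 CPM in the antennae of female 11 (0.622 M counts). DPOGS206995 missed the limits with 6.83 CPM in the antennae of male 20, and DPOGS208400 with 4.36 CPM in the proboscis of female 1.

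The most abundant genes of the 2 tissues were partly the same. Of the top 100 genes by mean level in each tissue, 46 were shared. The antennal top 100 held 32 genes called higher in antennae and 9 called lower, and the proboscis top 100 held 62 called lower in antennae and 4 called higher. In both batches these counts were 16 and 5 for antennae, and 49 and 1 for proboscis. A gene of the antennal top 100 had a median rank of 107 in proboscis, and one of the proboscis top 100 a median rank of 134.5 in antennae. Over all genes tested 10.5% were called higher and 14.5% lower, and choosing the most abundant genes of a tissue favours those called higher in it. Ranks past 1000 in the other tissue were found for 10 and 31 of them. Of the 46 shared genes, 33 were not called and 4 of the 13 called ones were higher in antennae.

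The 4 genes named next are those whose smallest within-animal difference was the largest, 2 in each direction, so their large differences follow from that choice. DPOGS212737 was an antennal gene whose level varied widely among antennae. Its antennal level was 69.9 CPM at the lowest (male 20), 3971 at the median and 9079 at the highest (female 25), with a mean of 3737 ± 3235 (SD, n = 11). In proboscis it had 42 counts in 4 of 11 libraries, and 0, 0 and 0.787 CPM as the lowest, median and highest level. The groups did not overlap, and the within-animal log2 difference ran from 10.7 to 17.2. The fitted log2 fold change was 14.45 ± 0.61 (SE; edgeR adjusted p = 3.41e-10), with 14.61 ± 0.64 in batch 1 (adjusted p = 1.07e-05) and 14.26 ± 0.96 in batch 2 (adjusted p = 2.04e-05). Fitted values against such low counts depend on the prior count.

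DPOGS208400 showed the same pattern with a still wider antennal range. In batch 1 its antennal levels were 5254 CPM in male 13, 1926 in male 15, 525 in female 18, 43.0 in male 20, 15218 in female 25 and 10234 in female 27. In batch 2 they were 1494 CPM in female 11, 14620 in male 12, 6975 in male 16, 10612 in female 1 and 6753 in female 3. Male 20 was the lowest for this gene as for DPOGS212737, and every antennal library lay above every proboscis library. For both genes the lowest antennae were those of males 15 and 20 and females 11 and 18. Their sums over 69 antennal genes called 32-fold or more apart in batch 1 were also the lowest. Both genes meet the rule for these 69, so the sums hold part of the same values. These sums were 9393 to 12199 CPM, against 30018 to 124400 CPM in the other antennae. What sets these libraries apart was not tested. Proboscis levels were 0 CPM at the lowest, 0.343 at the median and 4.36 at the highest (female 1), from 348 counts in 9 of 11 libraries. The fitted log2 fold change was 13.12 ± 0.71 (SE; edgeR adjusted p = 4.43e-09), with 14.17 ± 0.82 in batch 1 (adjusted p = 3.52e-05) and 12.38 ± 0.88 in batch 2 (adjusted p = 2.43e-05).

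DPOGS210970 was without a count in all 11 antennal libraries. Its proboscis level was 28.2 CPM at the lowest (male 20), 60.1 at the median and 86.4 at the highest, with a mean of 56.5 ± 20.7 (SD, n = 11) from 9709 counts. All proboscis libraries had it at a level that varied little beside that of the antennal genes above. Against a floor of 3 counts over the antennal group it was at least 1732-fold lower in antennae, at least 1046-fold in batch 1 and at least 664-fold in batch 2. The edgeR adjusted p was 4.24e-05 over 11 animals, 0.00156 in batch 1 and 0.000326 in batch 2.

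DPOGS212569 had 2 antennal counts, both in female 1 (0.0847 CPM). Its proboscis level was 28.9 CPM at the lowest, 41.4 at the median and 66.2 at the highest, with a mean of 47.0 ± 13.4 (SD, n = 11) from 8995 counts. The proboscis to antennae ratio was 2408, with an exact 95% interval of 666 to 19883 that covers counting error only. The edgeR adjusted p was 1.96e-10 over 11 animals, 0.00192 in batch 1 and 2.43e-05 in batch 2. The proboscis of male 2, outside the fit, had 23.97 CPM of DPOGS210970 and 63.2 CPM of DPOGS212569, and 0.159 CPM of DPOGS212737 and 2.84 CPM of DPOGS208400. It lay on the proboscis side for each of these 4 genes.

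**Figure D4:**
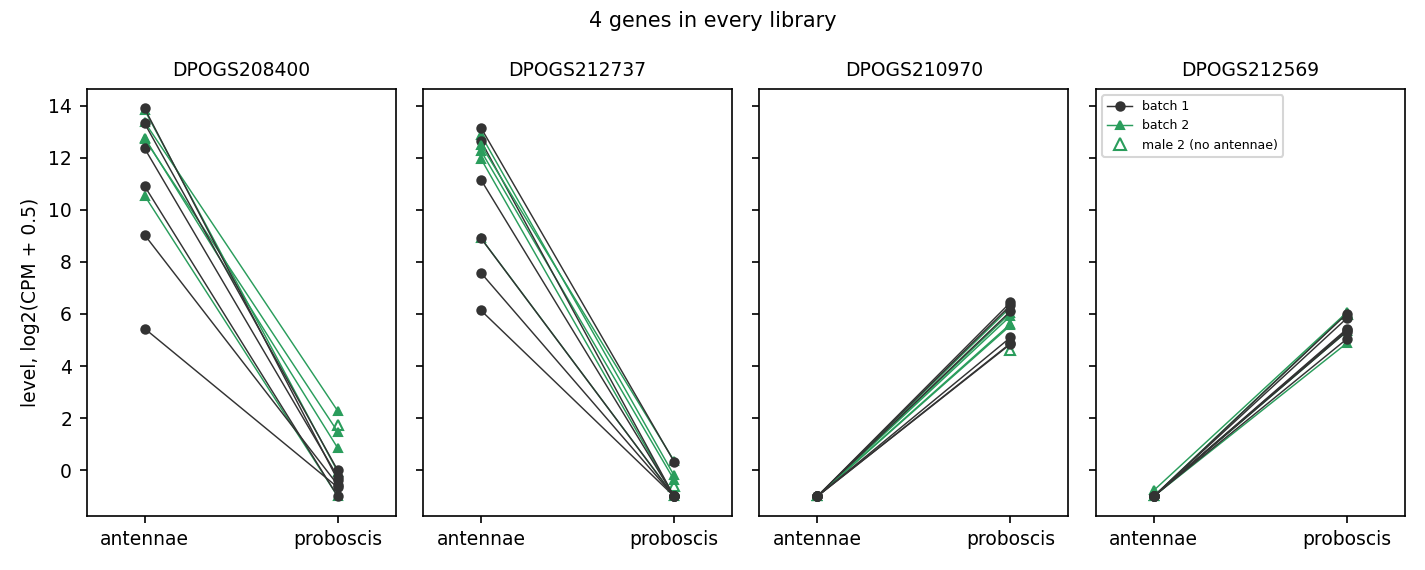
Level of the 4 named genes in each library, as log2(CPM + 0.5), with a line joining the 2 tissues of an animal; filled circles are batch 1, triangles batch 2 and the open triangle the proboscis of male 2. The 2 antennal genes spread over several log2 units among antennae, from 43.0 to 15218 CPM for DPOGS208400, while DPOGS210970 and DPOGS212569 stay within 28.2 to 86.4 CPM in the paired proboscis libraries.

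Whether the tissue difference itself differed between the batches was tested with an interaction term. The test called 0 of 10129 genes (0%) in edgeR, where 562 genes (5.55%) had an unadjusted p below 0.05. The same test called 4 genes in limma voom and 42 in DESeq2, and 3 in edgeR without the animal block or without female 25. Antennae minus proboscis was lower in batch 1 than in batch 2 for 397 of the 562 genes and higher for 165. An unadjusted p below 0.05 was found for 114 (13.7%) of the 830 genes called in both batches, 71 (7.25%) of those called in batch 1 only and 83 (31.6%) of those called in batch 2 only. A call in 1 batch only rests on the same values and favours a difference between the batches, so these shares are no test. With 0 genes called by the interaction term, such a difference was not shown in edgeR for the genes called in 1 batch only.

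The smallest adjusted p between batches, 0.0933, was shared by 4 genes, and 3 of them are described here after their values were seen. DPOGS207336 was a proboscis gene in both batches, with 2321 CPM at the lowest, 5340 at the median and 14046 at the highest among the 11 proboscis libraries. In antennae of batch 1 it reached 0 to 3.63 CPM (median 0.1102), with counts in 3 of 6 libraries. In antennae of batch 2 it reached 6.27 to 71.0 CPM (median 46.5), in 5 of 5 libraries and with no overlap with batch 1. As a percentage of the same animal's proboscis, the antennal level was 0 to 0.0597% in batch 1 and 0.168% to 1.03% in batch 2. The log2 fold change was -13.93 ± 1.05 (SE) in batch 1 and -7.73 ± 0.63 in batch 2, each from its own fit, and the interaction term of the joint fit was -6.45 ± 1.08 with an unadjusted edgeR p of 3.42e-05.

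DPOGS212228 had the same pattern at a lower level, with 219 to 612 CPM in proboscis (median 376). It had 4 counts in 1 of 6 antennal libraries of batch 1, and 1.11 to 5.68 CPM (median 4.45) in the 5 of batch 2. DPOGS206995 was higher in antennae in both batches, with a log2 fold change of 9.28 ± 0.35 (SE) in batch 1 and 13.52 ± 0.75 in batch 2. These fits rest on 31 and 9 proboscis counts, and the median within-animal log2 differences were 8.92 and 10.4. Limma voom and DESeq2 each called 3 of the 4 genes with the smallest edgeR p between batches, but not DPOGS206995. Its antennal level spanned 6.83 CPM in male 20 to 1720 CPM in female 1, so antennae of the 2 batches overlapped. Antennae of females 1, 3, 25 and 27 had 645 CPM or more and those of males 6.83 to 124 CPM. Females 11 and 18 had 24.1 and 75.5 CPM. The proboscis level of DPOGS206995 was 0 to 1.24 CPM in the paired libraries, and 6.39 CPM in the unpaired proboscis of male 2, above all of them.

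Levels left in the lower tissue were summed over lists of strongly different genes to see whether those patterns were wider. The 180 proboscis genes that were called 32-fold or more apart in batch 1 (and had 10 CPM or more in proboscis) were chosen in batch 1. In the batch 1 antennae these genes summed to 0.278% to 0.743% of the same animal's proboscis level (median 0.487%). In batch 2, which had no part in the choice, the sum was 0.574% to 1.83% (median 0.943%). Female 1 was the highest at 1.83%, and the 2 batches overlapped. With 160 proboscis genes chosen the same way in batch 2, the sums were 0.265% to 0.687% (median 0.392%) in batch 1 and 0.345% to 0.993% (median 0.524%) in batch 2. The batch 2 median was the higher one with either list, although a list favours a low value in the batch that chose it.

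The reverse percentages, of antennal genes in proboscis relative to antennae, did not keep an order between the batches. For the 69 antennal genes chosen in batch 1 they were 0.510% to 4.19% (median 0.833%) in batch 1 and 0.535% to 1.56% (median 0.968%) in batch 2. For the 98 antennal genes chosen in batch 2 the medians were 2.00% in batch 1 and 1.08% in batch 2. Female 18 had the highest percentage of batch 1 in both lists. These percentages also depend on the antennal sums, so their order is not that of the proboscis levels. For the 69 genes, females 18 and 25 each had a proboscis sum of 500 CPM, beside antennal sums of 11940 and 71970 CPM. The proboscis sums of these genes were 68.8 to 500 CPM in batch 1 and 191 to 1182 CPM in batch 2. The part of RNA carried over between tissues, or of reads assigned to the wrong library, in these sums was not tested.

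**Figure D5:**
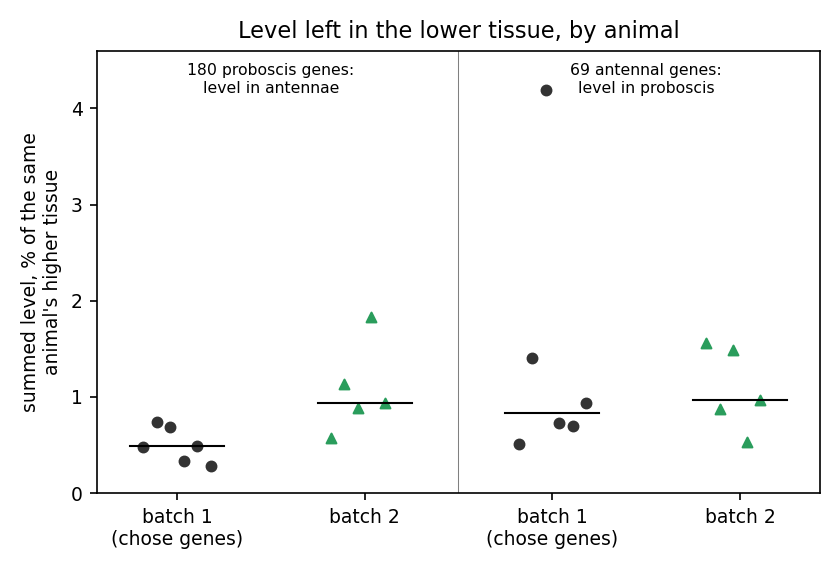
Summed level of tissue-high genes in the lower tissue, as a percentage of the same animal's higher tissue (vertical axis), one point per animal and a line at the median; genes were chosen in batch 1, left 180 proboscis genes in antennae, right 69 antennal genes in proboscis. The left medians are 0.487% in batch 1 and 0.943% in batch 2, and the right ones 0.833% and 0.968%.

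The tissue difference was also compared between the sexes, with 6 females and 5 males. The interaction test called 0 genes in edgeR (0%), where 181 (1.79%) had an unadjusted p below 0.05 and the smallest adjusted p was 1.0. DESeq2 called 2 genes and limma voom 0. Of the 830 genes called in both batches, every female had the called direction for 784 and every male for 771. These animals were used in making the calls, which favours such agreement in both sexes. By the interaction test in edgeR, a difference between the sexes in the antennae to proboscis contrast was not shown for any gene. That does not show that the sexes are alike.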

How the data were processed

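Per the file headers and values, the authors deposited raw read counts per gene for 15130 gene models. The submitters' processing notes list HISAT2 2.0.5 (an aligner), featureCounts 1.5.2 (a read counter), FastQC 0.11.5 and limma. Not given in the sources used here are genome build, annotation, strand setting and the treatment of multi-mapping reads, so genes with near-identical copies or antisense partners are uncertain. Counts of the 22 paired libraries were analysed with edgeR 4.0.16 (R 4.3.3): filterByExpr by tissue kept 10129 genes (the 5001 removed held 0.373% of counts, and 833 had none), then TMM scaling and a quasi-likelihood fit with the animal as a block. P-values were adjusted by the Benjamini-Hochberg method over all genes tested. Each batch was fitted alone on the same genes. CPM values use TMM-scaled library sizes. Libraries of the same animal come from one individual, which gives the pairing: their deviations from the tissue-by-batch means correlated at a median of 0.258 (9 of 11 animals above 0.1). No libraries were duplicates: any 2 of one tissue had a chi-square per gene of at least 19.1. The scripts were tested on simulated data. Named genes were those called over 11 animals and in each batch, with the same sign in all 11 animals and at least 10 CPM in the higher tissue, ranked by the smallest within-animal difference, 2 per direction. The comparison, lists and rules were chosen with earlier results of these data known. Lists of gene families and cell type markers were void, since no identifier matched a name. DESeq2 1.42.0, limma voom 3.58.1, other scalings and filters, thinned counts and each animal left out were alternatives. Intervals and floors cover counting error only.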

Additional observations from a re-analysis of the deposited data

How the results depend on the processing

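The 4 named genes kept their direction in the alternative runs made for them. They were chosen for large differences of the same sign in all 11 animals, so this direction is no test. The evenness of the counts also had the same direction in all 11 animals, so leaving out female 11 could not reverse it. Its mean log2 ratio was 0.632 for the genes that hold 80% of the counts. It was 1.12 with libraries thinned to equal totals within each animal. The fitted log2 fold change over the alternative runs was 13.6 to 14.8 for DPOGS212737, 12.3 to 13.4 for DPOGS208400, -13.3 to -9.26 for DPOGS210970 and -11.7 to -8.84 for DPOGS212569. DPOGS210970 had 0 antennal counts and DPOGS212569 had 2, so their fitted values depend on how each tool treats such counts. From the counts, DPOGS210970 was at least 1732-fold lower in antennae. The 2525 genes called over 11 animals became 2198 without the replicate block (all 23 libraries) and 3463 with DESeq2, and 2239 to 2545 with an animal left out.

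With DESeq2, 2715 genes were called in batch 1, 1979 in batch 2 and 1358 in both. Limma voom called 1913 in batch 2 and 1331 in both. Leaving out 1 animal gave 1204 (without female 25) to 2012 (without male 20) in batch 1, 624 (without female 3) to 1126 (without male 12) in batch 2, and 544 (without female 3) to 845 (without male 20) in both. Without male 16, batch 2 called 679. No replicate block gave 623 genes in both batches. Opposite calls numbered 0 in each of these settings except DESeq2, with 1. Between batches the count was 5 with no filter on low counts, 3 without the replicate block, 42 with DESeq2, 4 with limma voom and 0 to 3 with an animal left out (3 without female 25). Between sexes DESeq2 called 2.

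The share of called genes that were higher in antennae, 42.0% as reported, fell to 32.6% without male 13, 35.1% without male 15, 33.5% without female 25 and 33.6% without female 27, where the median log2 fold change of all genes was -0.175, -0.153, -0.178 and -0.182. It was 33.9% (882 higher, 1720 lower) with the proboscis of female 1 as TMM reference. The cause of these changes was not tested. With the deeper library of each animal thinned to the total of the shallower one, 2529 genes were called over 11 animals and 1137 in batch 2. Shallow antennal libraries (0.622 M counts in female 11) limit what can be detected for genes low in antennae.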
